A study of Mus musculus with 2 samples.

Results

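The genes described here are the mouse zinc finger genes whose symbols begin with Zfp, Zscan, Zkscan, Zbtb or Znf, apart from Zfp57, that had a row of their own in the deposited table with a value above 0 in both libraries. They were selected on these values, which are the authors' significant rows, and on their names. There were 34 such genes among 2306 symbols with a row of their own and values in both libraries. The study measured gene transcription by RNA sequencing in embryonic mouse cortex at E14.5 on a B6/129 background. One library was Trrap-deleted (TrrapF/F NestinCre+), and the other, entered as wild type, was described as heterozygous for the mutation (TrrapF/+ NestinCre+) and is called the control. Both therefore carried Nestin-Cre, a recombinase driven in neural progenitors and their descendants, so cells of other lineages in the tissue are not expected to be deleted. Trrap is a large adaptor protein that histone acetyltransferase complexes are built on, and the series asks how the acetylation it allows bears on cell division and fate choice in neural progenitors. The number of embryos behind a library is not stated in the labels.

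The values are FPKM (fragments normalised for the length of the transcript and for sequencing depth), so levels can be set beside each other between genes. The table holds only loci that the authors marked significant at a q-value of 0.05 in their own test, and a gene without a row is called not listed. There was 1 library per genotype, so no value has a standard deviation, no test between genotypes could be run here, and the spread between embryos is unknown. Read depth is also unknown. Trrap itself was not listed and gave no check of the labels. Of 10 marker genes of cortical neurons and progenitors 2 were listed, Neurod6 (260 FPKM in the Trrap-deleted and 312 in the control library) and Bcl11b (28.05 and 37.3), so both were expressed in each library. Markers of other cell types differed between the libraries. All 8 listed of 10 microglial markers were higher in the Trrap-deleted library, at 1.06 to 6.09 FPKM there and 0.357 to 2.39 in the control. All 5 listed of 8 meningeal markers were higher, at 1.02 to 6.34 FPKM against 0.0203 to 1.79, and all 3 listed of 9 ventral telencephalic markers were lower, at 0.276 to 1.71 FPKM against 1.68 to 7.06. The listed markers of these 3 kinds lie in bins 1 to 3 of 10 equal bins by mean FPKM, counted from the least abundant. There 73.9% to 81.8% of all symbols were higher, against 58.5% over all bins. None of the 5 endothelial markers was listed, and of 6 erythroid markers Hbb-y was listed, higher in the Trrap-deleted library. The libraries also differed in transcripts that follow sex. The Y-linked Eif2s3y had 32.8 FPKM in the Trrap-deleted and 0.111 FPKM in the control library, Ddx3y had 5.18 and 0.00653 FPKM, and Xist had 142 and 313 FPKM. With 1 library per genotype, the part of these differences in the zinc finger values was not tested and cannot be told apart from genotype. In bulk tissue fewer cells of a type and less RNA per cell cannot be told apart either.

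C2H2 zinc finger proteins form the largest group of mammalian transcription factors. Each finger folds around a zinc ion held by a pair of cysteines and a pair of histidines, and arrays of fingers read DNA. Many carry a KRAB box, which recruits the corepressor Trim28 and through it histone methylation, and are best known for silencing transposable elements. Others carry a SCAN domain, through which such proteins pair, or a BTB domain, which recruits the NCoR and SMRT corepressors.

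Most of the zinc finger genes listed had less RNA in Trrap-deleted cortex. Of the 34 genes, 29 were lower and 5 were higher, while over all 2306 symbols 41.5% were lower and 58.5% higher. Their median log2 fold change, Trrap-deleted over control, was -0.72 (1.64-fold lower), against a median of 0.55 over all symbols. Their summed level was 448 FPKM in the Trrap-deleted library and 706 FPKM in the control. At least 2-fold lower were 7 of the genes (13.2% of all symbols) and at least 2-fold higher were 3 (25.7% of all symbols). The sizes depend on how the libraries are scaled, which here could use only the 2306 listed symbols and not the genes without a row. With these symbols centred on a median of 0, every log2 fold change shifts by the same amount. The median over the 34 genes was then -1.27, with 27 genes at least 2-fold lower and 1 at least 2-fold higher. Scaled to the same summed FPKM, the median was -0.37, with 3 at least 2-fold lower and 5 at least 2-fold higher. Over all symbols the median was then 0.90, and 40.8% were lower. The shares of all symbols past 2-fold were not counted under either scaling, and those given above do not apply there. Under both scalings 29 genes were lower and 5 higher, since neither shift was large enough to reverse any of them. These counts come from the same comparison that put the genes in the table, and the genes were chosen with its results known, so they describe the group and do not test it. In the annotation 468 protein-coding genes have such symbols, and the 34 listed are 7.26% of them, while 8.39% of all protein-coding genes were listed. The other zinc finger genes may have missed the authors' threshold, not been expressed or had no row of their own. For most of them the table does not tell which. Zfp628, Zfp566 and Zfp82 are in merged rows, given below.

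**Figure D1:**
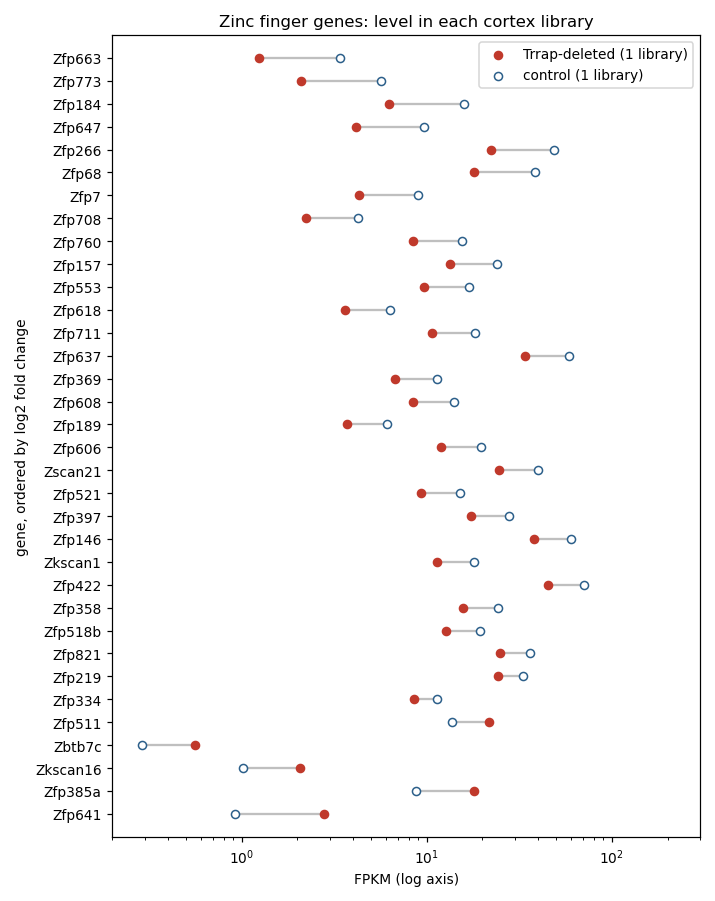
Level of each of the 34 zinc finger genes in FPKM (log axis), with filled red points for the Trrap-deleted library and open blue points for the control, ordered by log2 fold change. For 29 genes the Trrap-deleted point lies to the left of the control point, and for the last 5, from Zfp511 to Zfp641, to its right.

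The authors' q-values for the genes in their deposited table ran between 4.91e-10 for Zfp266 and 0.04998 for Zfp369, and 21 of the 34 were under 0.01. Zfp369 is thus the gene just inside the threshold, and none just outside it is in the table. Left out by the rule were 2 rows that merge several genes: Nat14 with Zfp628, at 13.0 FPKM in the Trrap-deleted and 7.39 in the control library, and Zfp566 with Zfp82, at 8.39 and 18.3 FPKM. Zfp57, a keeper of genomic imprints that was also left out, was at 37.0 FPKM in the Trrap-deleted and 140 FPKM in the control library. Zinc finger genes are a large family with similar sequences, and the sources used here do not say how reads matching several genes were counted. Of the 34 genes, 13 overlap another annotated gene, 9 of them one on the opposite strand, and it is not stated whether counting used the strand.

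The largest decreases were in genes of which several encode KRAB-type proteins. Zfp663 (chromosome 2, 165176797 to 165194232 on mm9) had 1.24 FPKM in the Trrap-deleted and 3.39 FPKM in the control library, a 2.73-fold decrease. Zfp773 had 2.08 FPKM against 5.66 FPKM in the control (2.71-fold lower), and Zfp184 had 6.24 FPKM against 15.9 FPKM (2.55-fold lower). All 3 matched the KRAB pattern described further on. Zfp647 had 4.14 FPKM in the Trrap-deleted and 9.71 FPKM in the control library, and its neighbour Zfp7 had 4.32 and 8.95 FPKM. Zfp266, which has been reported as a barrier to reprogramming fibroblasts to heart cells, had 22.4 FPKM in the Trrap-deleted and 48.5 FPKM in the control library, but its locus in the table is 4.95 times as long as the annotated gene. Zfp68 had 17.9 FPKM in the Trrap-deleted and 38.5 FPKM in the control library, and a pseudogene inside it, Gm15497, has a row with the same locus that was also lower. These 7 are the genes that were at least 2-fold lower, and the next, Zfp708, had 2.23 FPKM in the Trrap-deleted and 4.26 FPKM in the control library.

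The most abundant zinc finger genes were all lower. Zfp422, a short protein also known as Krox-26, had 45.2 FPKM in the Trrap-deleted and 71.1 FPKM in the control library (1.57-fold lower). Zfp146, made almost wholly of zinc fingers, had 37.8 FPKM against 59.96 FPKM in the control (1.59-fold lower). Zfp637 had 34.1 FPKM against 58.3 FPKM in the control (1.71-fold lower). These 3 came first in both libraries and in the same order. The next by mean level were Zfp266, Zscan21 and Zfp821, whose order differed: Zfp821 was highest of them in the Trrap-deleted library and Zfp266 in the control. Zfp821 had 25.0 FPKM in the Trrap-deleted and 36.2 FPKM in the control library, a log2 fold change of -0.53. None of the 34 genes was in the most abundant of 10 equal bins of all symbols by mean FPKM, in which 84.0% were lower.

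Genes with known roles in neural tissue were among those lower, though Zfp385a, described below, was higher. Zfp521, a factor that promotes neural fate in mouse embryonic stem cells, had 9.27 FPKM in the Trrap-deleted and 15.1 FPKM in the control library, a log2 fold change of -0.70. Zfp369, also known as neurotrophin receptor-interacting factor 2, had 6.70 FPKM in the Trrap-deleted and 11.3 FPKM in the control library. Zscan21, also known as Zipro1, drives proliferation of mouse cerebellar granule cell precursors, and it had 24.5 FPKM in the Trrap-deleted and 40.0 FPKM in the control library. All 3 were lower by 1.63-fold to 1.69-fold. Zfp711, on the X chromosome, whose human counterpart is mutated in intellectual disability, had 10.6 FPKM in the Trrap-deleted and 18.3 FPKM in the control library. For this X-linked gene, as for the others, the difference in sex-linked transcripts and the genotype cannot be told apart. Zfp608 had 8.46 and 14.1 FPKM, and Zfp219, which partners Sox9 in mouse cartilage cells, had 24.2 and 32.9 FPKM, the smaller of these differences at a log2 fold change of -0.45. The deposited loci of Zfp608 and Zfp219 are 1.83 and 2.38 times as long as the annotated genes, and both genes overlap others on the opposite strand. Of 50 zinc finger symbols gathered for roles in neural development or in general regulation 5 were listed. Zfp521, Zfp219, Zfp369 and Zfp608 were lower and Zfp385a was higher. The share lower was 80.0%, against 85.3% of all 34 genes and 41.5% of all symbols. Zscan21 and Zfp711 were not among the 50. Zbtb18 and Zbtb20, regulators of cortical neuron identity, were not listed.

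Of the 5 genes that were higher, 3 had at most 2.80 FPKM in either library. Zfp641 had 2.80 FPKM in the Trrap-deleted and 0.919 FPKM in the control library (3.05-fold higher). Zfp385a, which binds RNA, carries messenger RNA into dendrites of mouse neurons and acts with p53, had 18.1 FPKM against 8.77 FPKM in the control (2.06-fold higher). Zkscan16 had 2.08 FPKM against 1.02 FPKM in the control (2.05-fold higher). These are the 3 genes that were at least 2-fold higher. Zbtb7c, a BTB-type repressor also known as Kr-pok, had 0.561 FPKM in the Trrap-deleted and 0.290 FPKM in the control library, the lowest level of the group. Zfp511 had 21.7 FPKM in the Trrap-deleted and 13.6 FPKM in the control library, but its deposited locus is 21.4 times as long as the annotated gene and the gene overlaps Tubgcp2 on the opposite strand, so its value is uncertain. Where 1 of the libraries had to reach 5 FPKM, only Zfp385a and Zfp511 remained among the higher genes, with 27 lower. Of all symbols that reached it 47.6% were lower.

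The remaining 11 genes were all lower, by log2 fold changes of -0.87 to -0.42. Zfp760 had 8.43 FPKM in the Trrap-deleted and 15.4 FPKM in the control library, and Zfp157 had 13.4 and 24.01 FPKM. Zfp553 had 9.62 and 17.0 FPKM, at a deposited locus 4.73 times as long as the annotated gene, and Zfp618, a partner of the hydroxymethylcytosine reader Uhrf2, had 3.60 and 6.32 FPKM. Each of these 4 was lower by 1.75-fold to 1.83-fold. Zfp189 had 3.69 FPKM in the Trrap-deleted and 6.08 FPKM in the control library, Zfp606 had 12.0025 and 19.7 FPKM, and Zfp397 had 17.3 and 27.8 FPKM. Zkscan1 had 11.4 FPKM in the Trrap-deleted and 17.9 FPKM in the control library, Zfp358 had 15.7 and 24.4 FPKM, and Zfp518b had 12.7 and 19.4 FPKM. The smallest difference was in Zfp334, with 8.51 FPKM in the Trrap-deleted and 11.4 FPKM in the control library. The deposited loci of Zfp397 and Zfp146 are also longer than the annotated genes, by 2.73 and 2.36 times.

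The zinc finger genes were lower across most of the range of level in which they lay. Over all symbols the share lower was 18.2% in the least abundant of the 10 bins by mean FPKM and 84.0% in the most abundant. In bins 3, 4, 7 and 8, counted from the least abundant, where 26.1% to 46.8% of symbols were lower, all 15 zinc finger genes were lower. In bins 5 and 6, where 41.3% and 42.0% of symbols were lower, 12 of 14 zinc finger genes were. In bins 1 and 2, at a mean below 2.87 FPKM, 3 of 4 were higher, as were 81.8% and 76.2% of all symbols there. Zfp422, the only one in bin 9, was lower, as were 60.0% of symbols there. Among the 1827 symbols within the same range of mean FPKM as the 34 genes, the median log2 fold change was 0.63.

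**Figure D2:**
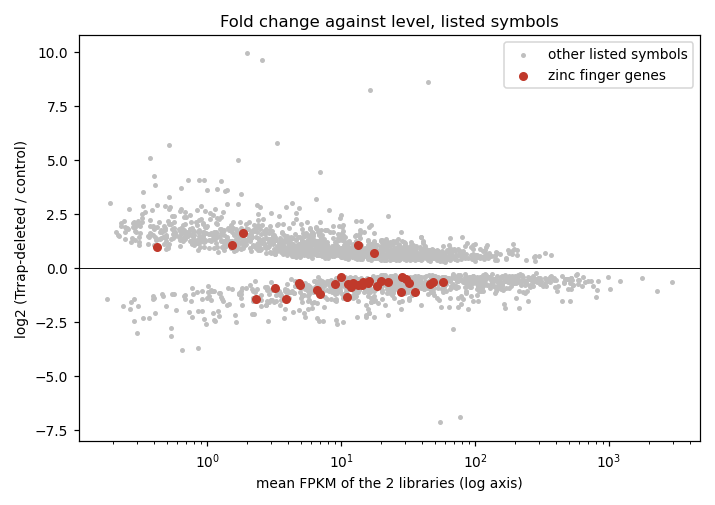
Log2 fold change, Trrap-deleted over control, against the mean FPKM of both libraries (log axis) for 34 zinc finger genes (red) and the other listed symbols (grey). The 29 lower zinc finger genes form a band between -1.45 and -0.42, and the empty strip around 0 reflects that only loci past the authors' threshold are in the table.

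The proteins' structure was read from the longest coding sequence annotated for each gene. A C2H2 motif was counted as a pair of cysteines with 2 to 4 residues between them, 12 residues, and a pair of histidines with 3 to 5 residues between them. All 34 genes held at least 1 such motif, with a median of 9, which is also the median over the 468 annotated genes with these prefixes. The 5 higher genes had 3 to 8 motifs, with a median of 3: Zfp385a, Zfp511 and Zbtb7c had 3 each, Zfp641 had 5 and Zkscan16 had 8. The 29 lower genes had 1 to 27 motifs, with a median of 9, and 18 of them had more than any of the higher genes. Zfp521 had 27 motifs and Zfp184 had 18, the highest numbers in the group, while Zfp608 had 1 and Zfp821 had 2. Of 10 genes with up to 5 motifs 6 were lower, of 11 with 6 to 9 motifs 10 were lower, and all 13 with 10 or more were lower. Of the 34 genes together 85.3% were lower, against 41.5% of all symbols. Of the higher genes, Zbtb7c lies in bin 1 and Zkscan16 and Zfp641 in bin 2, where 81.8% and 76.2% of all symbols were higher. Among C2H2 genes outside the naming rule, 5 of 6 with 10 or more motifs were higher. A relation to the number of motifs was not tested.

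A core pattern of the KRAB box (phenylalanine, any residue, aspartate, valine, any residue, an aliphatic residue, any residue, then phenylalanine or leucine) was found in 12 of the 34 genes (35.3%) and in 181 of 468 annotated genes with these prefixes (38.7%). Of those 12, 11 were lower and Zkscan16 was higher, and the median log2 fold change over the 12 was -0.99. Of the 7 genes at least 2-fold lower, 6 held the pattern, Zfp68 being the exception. A core pattern of the SCAN domain was found in Zscan21, Zkscan1, Zfp397 and Zfp369, which also holds the KRAB pattern, and all 4 were lower, with a median of -0.70. Of the 19 genes with neither pattern 15 were lower, with a median of -0.65. The shares lower in these classes (91.7%, 100% and 78.9%) lie near the 85.3% of all 34 genes, against 41.5% of all symbols. Both patterns are short and miss diverged copies, so a gene without a match may still carry the domain.

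**Figure D3:**
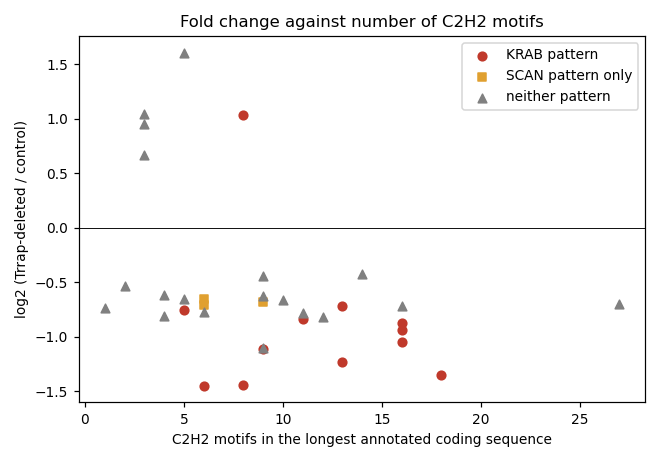
Log2 fold change, Trrap-deleted over control, against the number of C2H2 motifs in the longest annotated coding sequence, by pattern found. The 5 genes above 0 have 3 to 8 motifs, and all 13 genes with 10 or more motifs lie below 0. Of all 34 genes 85.3% lie below 0.

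Zinc finger genes of mammals often sit in clusters, and 8 of the 34 genes had another of them within 500 kb. On chromosome 5 of mm9, Zkscan1, Zscan21, Zfp157 and Zfp68 lie within 535 kb (138526312 to 139061504), and all 4 were lower, by log2 fold changes of -0.66, -0.71, -0.84 and -1.10. Zkscan1 and Zscan21 are separated by 6.87 kb. On chromosome 15, Zfp7 (log2 fold change -1.05) and Zfp647 (-1.23) are 16.7 kb apart. On chromosome 2, Zfp663 (-1.45) and Zfp334 (-0.42) are 5.53 kb apart and differed in size of change. The lower values were not shared by all listed genes nearby. Of 47 other listed symbols within 500 kb of any of the 34 genes, 18 were lower (38.3%) and 29 higher, against 41.5% lower over all symbols. Around the chromosome 2 pair, Cdh22, Slc2a10, Slc12a5 and Slc35c2 were all listed higher. Around the chromosome 5 cluster, the pseudogenes Gm4963 and Gm15497 were listed lower, the latter with the same locus as Zfp68. There 6330403L08Rik, within 500 kb of Zfp68 only, was listed higher.

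**Figure D4:**
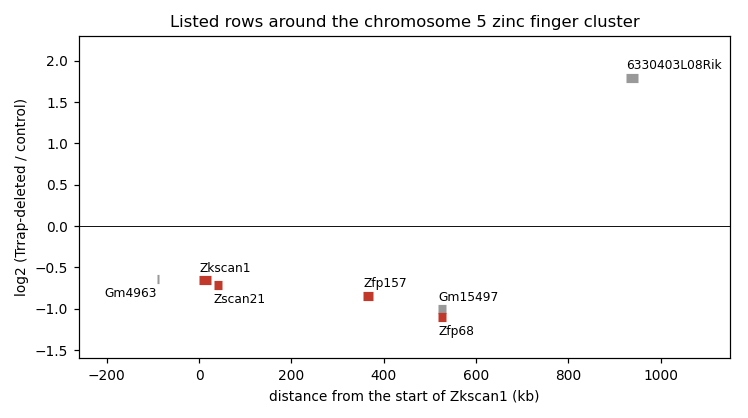
Listed rows around the zinc finger cluster of chromosome 5, with distance from the start of Zkscan1 in kb on the x axis and log2 fold change, Trrap-deleted over control, on the y axis. The 4 zinc finger genes (red) lie between -1.10 and -0.66, and the other rows (grey) include pseudogenes below 0 and 6330403L08Rik at 1.80.

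The promoters of those 4 neighbours are shown because the genes sit together and were all lower. Each window is the RefSeq promoter of the gene on GRCm38.p6, running 5′ to 3′ over 250 bases before and 50 bases after the annotated start. Capitals mark matches on either strand to CCGGAA, a core bound by ETS factors, AAGATGG, a core bound by YY1, and CCAAT, bound by NF-Y. The windows are chr5:138084834-138085133 (plus strand) for Zkscan1, chr5:138116655-138116954 (plus strand) for Zscan21, chr5:138441226-138441525 (plus strand) for Zfp157 and chr5:138619694-138619993 (minus strand) for Zfp68.
Zkscan1: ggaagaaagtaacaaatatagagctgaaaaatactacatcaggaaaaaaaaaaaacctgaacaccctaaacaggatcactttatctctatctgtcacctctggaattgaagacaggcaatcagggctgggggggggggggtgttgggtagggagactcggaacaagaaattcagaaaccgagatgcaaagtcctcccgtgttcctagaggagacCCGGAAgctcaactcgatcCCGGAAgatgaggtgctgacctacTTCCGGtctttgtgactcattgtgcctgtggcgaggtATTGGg
Zscan21: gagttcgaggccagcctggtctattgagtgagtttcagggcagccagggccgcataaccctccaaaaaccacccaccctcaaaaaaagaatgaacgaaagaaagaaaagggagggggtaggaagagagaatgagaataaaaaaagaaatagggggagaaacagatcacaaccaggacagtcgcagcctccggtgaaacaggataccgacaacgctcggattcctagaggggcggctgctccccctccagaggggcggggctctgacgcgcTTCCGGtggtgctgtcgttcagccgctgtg
Zfp157: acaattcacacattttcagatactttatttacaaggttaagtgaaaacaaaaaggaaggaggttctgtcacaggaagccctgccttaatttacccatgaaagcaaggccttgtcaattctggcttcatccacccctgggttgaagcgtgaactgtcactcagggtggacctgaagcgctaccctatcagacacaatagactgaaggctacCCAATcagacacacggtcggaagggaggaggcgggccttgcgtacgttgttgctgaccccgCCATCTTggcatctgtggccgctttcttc
Zfp68: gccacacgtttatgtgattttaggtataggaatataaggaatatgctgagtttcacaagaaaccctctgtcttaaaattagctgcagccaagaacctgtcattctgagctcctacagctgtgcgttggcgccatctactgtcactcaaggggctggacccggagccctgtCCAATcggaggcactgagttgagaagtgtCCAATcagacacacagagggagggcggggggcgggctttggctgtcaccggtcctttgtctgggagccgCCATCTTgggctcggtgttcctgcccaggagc
Zkscan1 held 3 matches to the ETS core and Zscan21 held 1, and neither held the YY1 core. Zfp157 and Zfp68 held 1 match each to the YY1 core and none to the ETS core. These last promoters also share the 14-base run CCAATcagacacac, the longest run shared by any of the 6 pairs, and the other 5 pairs shared runs of 8 to 10 bases. The matches describe the letters and are not evidence of binding.

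Promoter windows were matched for 25 of the 34 genes, 32 windows in all. Zbtb7c, Zfp369, Zfp397, Zfp521, Zfp608, Zfp647, Zfp7, Zfp711 and Zkscan16 were not matched. In 6 motifs searched on both strands, the shares were set beside those of all 21263 windows of protein-coding genes. The E-box CACGTG, bound by Myc, which recruits Trrap, was in 1 of the 32 windows (3.12%, that of Zfp708), against 7.84% of all windows. The E2F core GGCGGGA was in 5 (15.6%), against 14.9% of all windows. The ETS core CCGGAA was in 10 (31.2%), against 18.7% of all windows and 35.3% of windows of all genes with these prefixes. The YY1 core AAGATGG was in 2 (6.25%), those of Zfp157 and Zfp68, against 6.24% of all windows. CCAAT was in 12 (37.5%), against 38.2%, and GGGCGG, bound by Sp factors, which can overlap the E2F core, was in 17 (53.1%), against 46.2%. Since windows of the same gene overlap, these shares are a description.

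Other C2H2 families, which carry names of their own, moved both ways, in shares near those of all symbols. Of 124 such symbols 13 were listed, 8 higher (61.5%, against 58.5% of all symbols) and 5 lower, and their median on the log2 scale was 0.93, against 0.55 over all symbols. The largest increases were in Egr1, an immediate early gene, at 0.915 FPKM in the Trrap-deleted and 0.214 FPKM in the control library, Gli1, an effector of Hedgehog signalling, at 1.97 and 0.578 FPKM, and Sp6, at 0.367 and 0.118 FPKM. The largest decreases were in Sp5, a Wnt target, at 0.223 FPKM in the Trrap-deleted and 0.760 FPKM in the control library, Scrt2, a neuronal repressor of the Snail superfamily, at 17.5 and 46.3 FPKM, and Rest, which silences neuronal genes outside neurons, at 3.42 and 4.98 FPKM. Only 5 of the 8 higher genes had at least 1 FPKM in either library.

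Of 38 symbols of the Trim28 corepressor system, the partners of KRAB-type proteins, 4 were listed and all 4 were lower, against 41.5% of all symbols, and their median on the log2 scale was -0.58, against 0.55. Hdac2 and Rbbp4 lie in the most abundant of the 10 bins by mean FPKM, where 84.0% of all symbols were lower, and Trim24 and Smarcad1 lie in bin 7, where 40.4% were. Trim24, a relative of Trim28, had 21.2 FPKM in the Trrap-deleted and 37.9 FPKM in the control library. The deacetylase gene Hdac2 had 157 FPKM against 234 FPKM in the control, and Rbbp4, a histone chaperone of several corepressor complexes, had 138 FPKM against 179 FPKM. Smarcad1, a chromatin remodeller that binds Trim28, had 20.8 FPKM in the Trrap-deleted and 31.2 FPKM in the control library. Trim28 itself and Setdb1, the methyltransferase it recruits, were not listed. All 4 differences were smaller than 2-fold.

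Of 24 symbols gathered for corepressors used by BTB-type and related proteins 5 were listed. Among these, Bcl6 and Bcl6b are themselves BTB zinc finger genes rather than corepressors. Rcor2, a CoREST subunit of neural progenitors, had 81.2 FPKM in the Trrap-deleted and 142 FPKM in the control library, Tbl1x of the NCoR complex had 21.96 and 31.5 FPKM, and Bcl6b had 0.731 and 1.31 FPKM. Hdac3, the deacetylase of the NCoR complex, was higher, at 80.5 FPKM in the Trrap-deleted and 60.5 FPKM in the control library, and so was Bcl6, a BTB zinc finger gene, at 4.61 and 2.79 FPKM. The 5 genes thus had no common direction, and 60.0% of them were lower, against 41.5% of all symbols. Rcor2 lies in bin 10 by mean FPKM and Hdac3 in bin 9, where 84.0% and 60.0% of all symbols were lower. Tbl1x lies in bin 7, where 40.4% were lower. Bcl6 lies in bin 3 and Bcl6b in bin 1, where 26.1% and 18.2% were lower. Centring all symbols on a median of 0, which lowers every log2 fold change by 0.55, made Hdac3 lower.

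**Figure D5:**
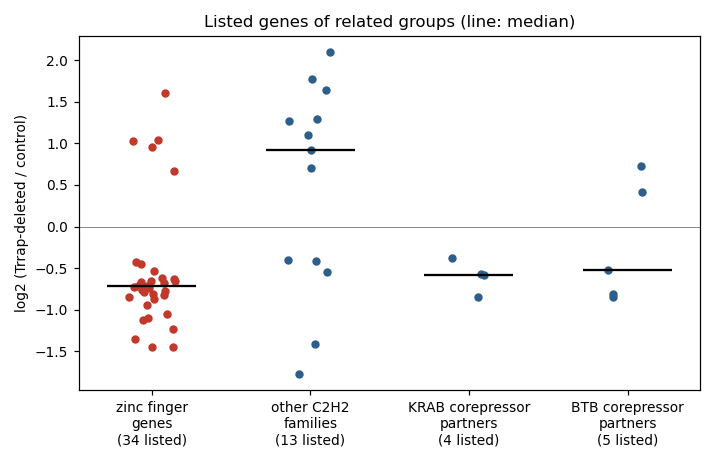
Log2 fold change, Trrap-deleted over control, of the listed genes in 4 groups, with a line at each median. The zinc finger genes have a median of -0.72 and the 13 genes of other C2H2 families one of 0.93. Genes in the KRAB and BTB corepressor lists lie between -0.85 (Bcl6b) and 0.73 (Bcl6), which are themselves BTB zinc finger genes. The other genes in these lists lie between -0.84 (Trim24) and 0.41 (Hdac3).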

How the data were processed

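RNA was measured in 2 libraries of embryonic cortex, 1 per genotype. Per the submitters' processing notes, reads were aligned with TopHat2 to mm9. The software for counting and for the test is not given in those notes. The 2 value columns hold FPKM deposited by the authors; the unit was inferred from the column layout, as the table does not name it. P-values and q-values are those of the authors' deposited table. The deposited table holds 2381 rows, all marked significant. Their log2 fold changes equal those recomputed here to within 1.18e-05.

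With Python 3.11.15, numpy 2.4.6 and pandas 2.3.3, log2 of Trrap-deleted over control was computed for symbols with a row of their own, taking the row with the highest mean for a symbol with several rows. No pseudocount and no further floor were used, and a 2-fold difference was the size threshold. Counts and medians were checked on simulated data. Figures were drawn with matplotlib 3.10.9. GENCODE M21, on GRCm38, gave coding sequences and gene overlaps, and RefSeq tables on GRCm38.p6 gave gene lengths and promoters. Deposited coordinates are on mm9, with the start counted from 1.

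The genes, gene lists and motifs were chosen with earlier results of these data known. Named by rule were all genes with the prefixes Zbtb, Zscan, Zkscan and Znf, the 8 largest changes each way, the 6 highest levels, listed neural regulators, listed corepressor partners, and from other C2H2 families the 3 largest changes each way. The remaining genes are given so that every one is accounted for.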

Additional observations from a re-analysis of the deposited data

How the results depend on the processing

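The directions of all 34 zinc finger genes were the same when the libraries were centred on a median of 0, under rescaling to the same summed FPKM and with a pseudocount of 1, and 29 stayed lower and 5 higher. This could not have come out otherwise and is no check. A pseudocount cannot change which value is larger. The rescalings lowered every log2 fold change by 0.55 or raised it by 0.35. The smallest increase was 0.67 (Zfp511) and the smallest decrease was -0.42 (Zfp334). Sizes moved. The median log2 fold change, -0.72 as deposited, was -1.27 after rescaling to a median of 0 and -0.37 after rescaling by summed FPKM, which adds 0.35 to every log2 fold change. It was -0.71 with a pseudocount of 0.1 and -0.67 with one of 1. It was -0.71 at an authors' q-value under 0.01, without X and Y, without the gene holding fewer than 2 C2H2 motifs, and without genes overlapping another gene. The count at least 2-fold lower, 7, became 27 after rescaling to a median of 0, 3 after rescaling by summed FPKM and 3 without overlapping genes. The count at least 2-fold higher, 3, became 1 and 5 under the same rescalings, 1 at an FPKM of at least 5 and 0 with a pseudocount of 1. The shares of all symbols past 2-fold were not counted in these settings. At a q-value under 0.01, 18 genes were lower and 3 higher, as many as without overlapping genes. Of all symbols under that q-value 41.1% were lower. At an FPKM of at least 5, 2 were higher and 27 lower, so that cut took out a larger share of the higher genes. Of all symbols at that FPKM 47.6% were lower. Fewer genes were counted in these settings: 21 at the q-value cut, 21 without overlapping genes and 29 at the FPKM cut. With a pseudocount all 34 were counted. Of other C2H2 families, 5 were higher at an FPKM of at least 1, against 8. Of the genes in the corepressor lists, 1 was higher after rescaling to a median of 0, against 2. Leaving out genes by number of motifs, overlap or a locus over 1.5 times the annotated length was chosen after seeing the data. The planned check against RefSeq proteins was not run, and GENCODE coding sequences were used in its place. No paired analysis was possible because each genotype had 1 library. Depth is unknown, so no detection limit could be set, and weak genes were listed only with large differences.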

Other observations

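Genes whose coding sequence holds at least 2 C2H2 motifs but whose symbols do not follow the naming rule numbered 22 among the listed symbols, Zfp57 not counted. In Trrap-deleted cortex 13 of these were higher (59.1%, against 58.5% of all symbols) and 9 lower, and their median on the log2 scale was 0.72, against 0.55. Outside the list of named families there were 9, with 5 higher and 4 lower. Zik1, the only one of the 22 with the KRAB pattern, had 10.2 FPKM in the Trrap-deleted and 22.6 FPKM in the control library. 5730507C01Rik, with 7 motifs, had 1.62 FPKM in the Trrap-deleted and 6.06 FPKM in the control library, and 2610008E11Rik, with 14 motifs, had 13.7 and 19.96 FPKM. Going the other way, Gm14325, with 14 motifs, had 58.2 FPKM in the Trrap-deleted and 21.5 FPKM in the control library, and Gm4631, with 13 motifs, had 19.3 and 14.2 FPKM. Of the 6 with 10 or more motifs 5 were higher (83.3%, against 58.5% of all symbols), namely Gm14325, Gm4631, Mzf1, Zfhx2 and Zfhx3. The other, 2610008E11Rik, was lower. Zfhx3 lies in bin 1 by mean FPKM and Mzf1 in bin 3, where 81.8% and 73.9% of all symbols were higher. All 13 genes with as many motifs under the naming rule were lower. The 22 genes were chosen after the data were seen and no test was made of them.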
